A study of Homo sapiens and Mus musculus with 21 samples.

Results

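The mTORC1 and amino acid sensing genes are 36 genes taken by name for their place in the pathway: the subunits of the kinase complex, the GTPases and complexes that bring it to the lysosome or hold it off, and its best known substrates. Of these, 35 were among the 19848 genes of the hairpin table, 33 among the 23037 genes of the drug table, and 36, as mouse orthologue symbols, among the 28692 genes of the thymus matrices. DEPTOR was not analysed here in the hairpin experiment, and AKT1S1, FLCN and FNIP1 were not analysed here in the drug experiment.

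mTORC1 is a kinase complex that couples growth to nutrients. When amino acids are plentiful, Rag GTPases held on the lysosome by Ragulator recruit it to the GTPase RHEB, which activates it; the TSC complex switches RHEB off, GATOR1 and the folliculin complex act on the Rag GTPases, and GATOR2 opposes GATOR1. Active mTORC1 phosphorylates S6 kinases and 4E-BPs, which control translation, and ULK1, which starts autophagy, and T-cell leukemias and developing thymocytes depend on this balance for growth.

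The series examined DHX15, an RNA helicase with roles in pre-mRNA splicing, in 21 samples. The human T-cell acute lymphoblastic leukemia line CUTLL1, an established cell line, was infected with a lentivirus carrying the DHX15 hairpin shDHX15-1, the DHX15 hairpin shDHX15-2 or a hairpin against GFP (shGFP), with 3 RNA-seq libraries of each, or was given ciclopirox, an iron-chelating antifungal, at 5 µM or its solvent DMSO, again with 3 libraries of each. For RNA immunoprecipitation (RIP), CUTLL1 gave 2 DHX15 libraries, 1 IgG library and 1 input. Single thymus cells came from 6-week-old Dhx15 KO and Dhx15fl/fl mice, with 1 library of each. No source used here gives the Cre line, the deleted exons, the number of mice, or the times of infection and treatment. All bulk libraries come from 1 cell line, and nothing states that replicates were separate cultures, so p-values measure the spread between libraries, which may be technical.

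The hairpin libraries held 59702150 to 62633707 reads and the drug libraries 32451469 to 37177509 reads in genes. T-cell markers were present in all hairpin libraries (CD3D at 241 to 312 RPKM, CD7 at 55.3 to 144 RPKM), and the B-lineage gene CD79A was also found, at 23.6 to 59.6 RPKM. Each pair of replicates varied beyond counting noise, with a chi-square per degree of freedom of 2.72 to 6.81 in the hairpin groups and 13.4 to 25.5 with ciclopirox. In the drug experiment 1 library stood apart: DMSO replicate 1 gave 35.2 and 36.1 against the other DMSO libraries, which gave 3.40 against each other. The count of members called with ciclopirox and the values of some members are therefore also given without DMSO replicate 1. Other ciclopirox values rest on all drug libraries.

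DHX15 itself checked the labels. It stood at 17.1, 17.3 and 16.5 RPKM with shDHX15-1 and at 16.1, 16.5 and 16.8 RPKM with shDHX15-2, against 42.8, 44.1 and 43.2 RPKM with shGFP. Both hairpins lowered it by a like amount, with log2 fold changes of -1.30 (SE 0.025) and -1.34 (SE 0.025), and the hairpins did not pass the test against each other (limma adjusted p = 0.20).

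Promoters of the members are shown because DDIT4 and FNIP1 had the largest rises with shDHX15-2 and also rose with shDHX15-1, and because RRAGB, a Rag GTPase that also rose, has the most E-boxes. RefSeq promoters (GRCh38.p14, 250 bases before to 50 after the start) were matched for 29 of 36 members. The motifs searched on both strands were ACGTG, the core of hypoxia response elements; CACGTG, the E-box, which contains that core; TCACGTGA, the CLEAR box of lysosomal genes, which contains the E-box; and TGATGNAAT, an ATF4 composite site. Capitals mark the matches.

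DDIT4, chr10:72273674-72273973, plus strand: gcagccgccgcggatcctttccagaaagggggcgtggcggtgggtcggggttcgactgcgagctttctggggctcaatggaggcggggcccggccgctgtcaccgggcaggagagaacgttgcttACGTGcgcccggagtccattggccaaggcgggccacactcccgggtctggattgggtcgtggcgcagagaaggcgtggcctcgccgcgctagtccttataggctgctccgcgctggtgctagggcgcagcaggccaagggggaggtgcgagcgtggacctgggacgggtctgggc
FNIP1, chr5:131796968-131797267, minus strand: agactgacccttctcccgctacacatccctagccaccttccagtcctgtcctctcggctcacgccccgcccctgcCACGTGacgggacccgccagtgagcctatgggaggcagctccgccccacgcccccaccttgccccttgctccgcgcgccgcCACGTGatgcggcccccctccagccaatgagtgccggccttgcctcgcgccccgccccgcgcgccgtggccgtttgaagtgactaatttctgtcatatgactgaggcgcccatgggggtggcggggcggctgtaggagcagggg
RRAGB, chrX:55717499-55717798, plus strand: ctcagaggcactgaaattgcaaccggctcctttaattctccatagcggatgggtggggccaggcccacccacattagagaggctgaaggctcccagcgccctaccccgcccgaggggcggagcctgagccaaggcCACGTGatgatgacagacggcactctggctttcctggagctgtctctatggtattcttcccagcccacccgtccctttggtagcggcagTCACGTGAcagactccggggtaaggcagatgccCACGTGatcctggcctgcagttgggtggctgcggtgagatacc

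The DDIT4 window holds 1 ACGTG, the FNIP1 window 2 E-boxes, and the RRAGB window 3 E-boxes, of which 1 lies in a CLEAR box. Across the members, ACGTG lay in 13 of 29 promoters (44.8%), against 21.6% of all 27305 promoters. E-boxes lay in 7 of 29 (24.1%, against 7.43%) and CLEAR boxes in 2, those of TSC2 and RRAGB (6.9%, against 1.04%). The ATF4 composite letters were in 0 member windows, against 1.02% of all. These are matches of letters in a window, and no factor's binding was measured. The promoters compared were not matched on GC content, and its part in these shares was not tested.

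With shDHX15-1, 28 of 35 members passed the test (limma on log2(RPKM + 1) over all genes, adjusted p under 0.05), 16 of them higher and 12 lower. The same test called 74.3% of all 15022 genes tested (45.4% higher, 28.9% lower), so the share of members called was near the background. With shDHX15-2, 27 members were called, 15 higher and 12 lower, against 65.7% of all genes (35.6% higher, 30.1% lower). The median member change was 0.05 log2 with each hairpin, against 0.09 and 0.03 log2 for all genes tested. Libraries did not overlap between knockdown and shGFP for 29 members with either hairpin, against 76.3% of all genes with shDHX15-1 and 69.8% with shDHX15-2. Centring each library on its median lowers the shDHX15-1 changes of all genes by 0.11 log2 and turns the split with that hairpin to 11 higher and 16 lower. The size of changes also depended on the scaling and the test, as seen in members called in both the main and the other setting. With shDHX15-1 the value moved by over 1.5 times for 10 after median-centring, 8 after quantile normalisation and 13 each with edgeR and DESeq2. With shDHX15-2 it did so for 1, 1, 2 and 3 members. The 1 added before the log2 also shrinks the main values of members at low RPKM.

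Both hairpins moved 19 members the same way, 11 higher and 8 lower, against 49.2% of all genes (28.8% higher, 20.4% lower). After median-centring the split was 9 higher and 11 lower. Another 2, TSC2 and RPS6KB1, were called in opposite directions (5.47% of all genes). The hairpin effects share the shGFP libraries. Since RPKM is a share of a library's reads, less RNA per cell and fewer cells of a type cannot be told apart in these bulk samples.

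**Figure D1:**
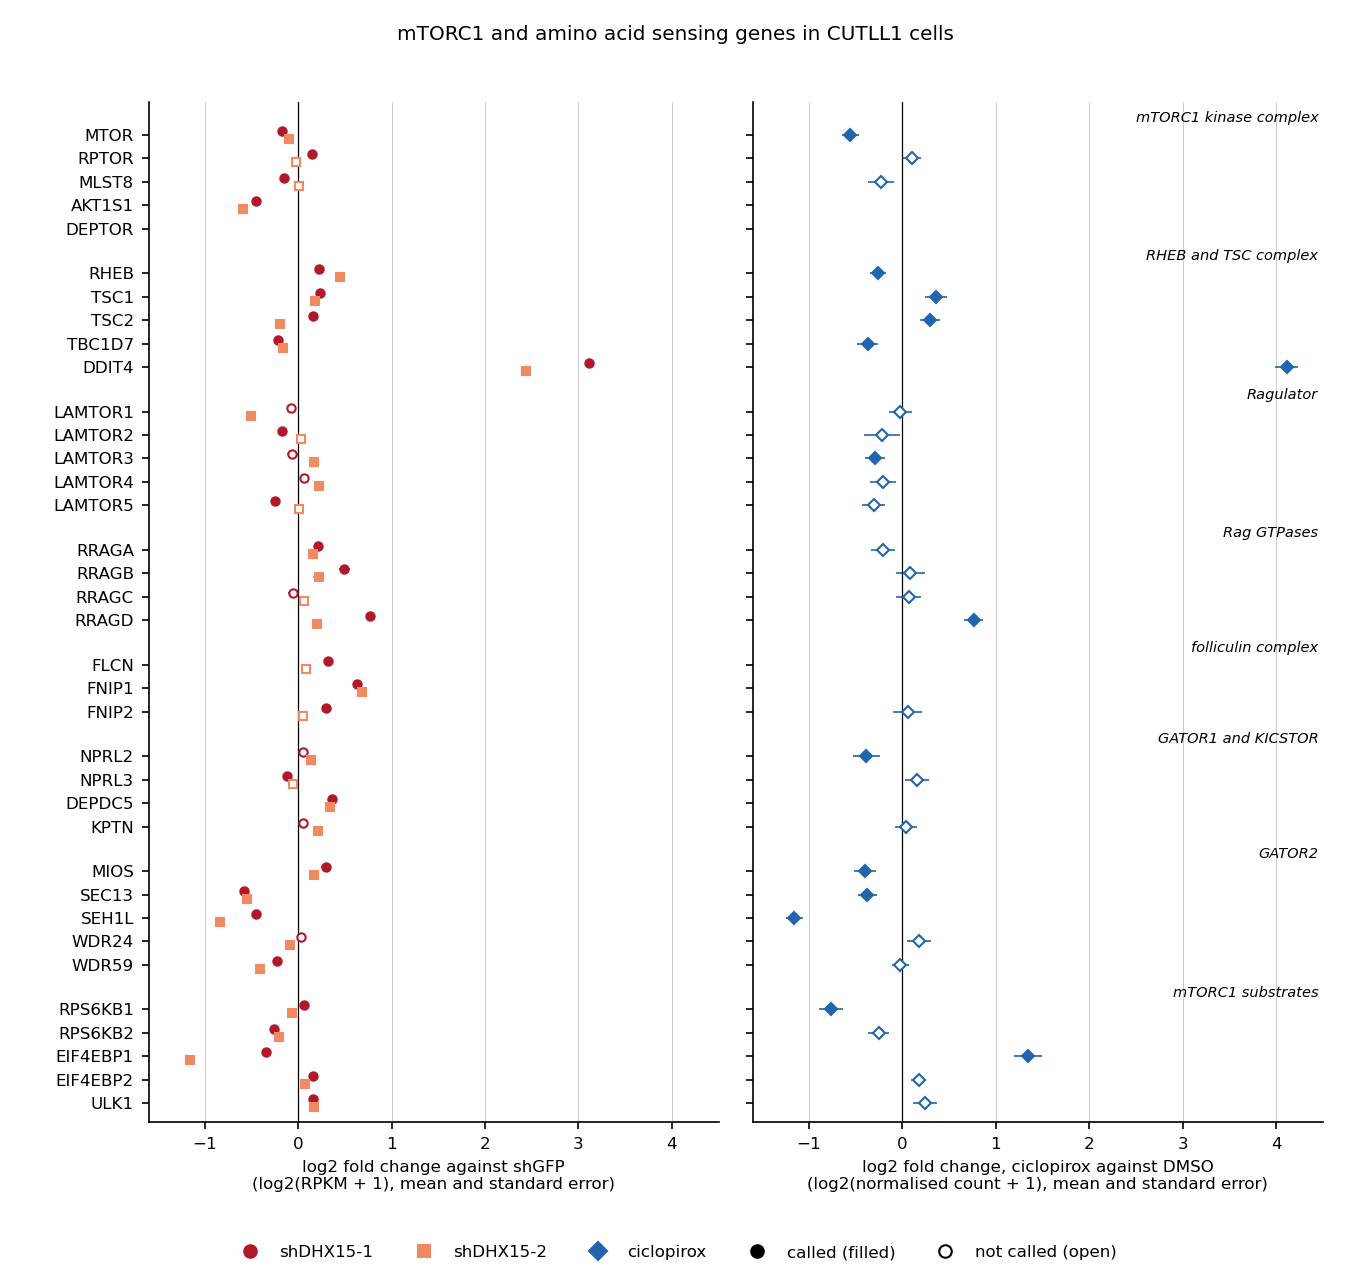
Log2 fold change of each member (standard error bars) with shDHX15-1 and shDHX15-2 against shGFP (left) and with ciclopirox against DMSO (right), grouped by role; filled symbols were called. DDIT4 lies at 3.12, 2.44 and 4.11, beyond every other member, and most others lie within 1 log2 unit of 0.

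Among the regulators of RHEB, DDIT4 had the largest change of any member. DDIT4 (REDD1) is a stress-induced protein that acts through the TSC complex to restrain mTORC1. It stood at 270, 266 and 280 RPKM with shDHX15-1 and at 169, 170 and 171 RPKM with shDHX15-2, against 30.8, 30.2 and 30.5 RPKM with shGFP. All knockdown libraries lay far above the shGFP libraries, and the hairpins did not overlap with each other. The group means were 8.93-fold and 5.57-fold those of shGFP, with log2 fold changes of 3.12 (SE 0.021, limma adjusted p = 4.25e-12) and 2.44 (SE 0.021, adjusted p = 3.53e-11). The smaller rise with shDHX15-2 was itself a called difference between the hairpins, at -0.68 log2 (SE 0.021, limma adjusted p = 5.52e-08).

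RHEB, the GTPase that activates mTORC1, also rose. It stood at 20.7, 20.8 and 22.0 RPKM with shDHX15-1 and at 25.0, 24.4 and 25.4 RPKM with shDHX15-2, against 17.9, 19.0 and 17.1 RPKM with shGFP. No library overlapped between the groups, and the changes were 0.22 and 0.45 log2 (SE 0.038 each; limma adjusted p = 0.000575 and 8.98e-06), the shDHX15-1 value being 0.12 log2 after median-centring and still called. TSC1, the scaffold of the TSC complex, stood at 4.10, 4.08 and 3.81 RPKM with shDHX15-1 and at 3.78, 3.75 and 3.84 RPKM with shDHX15-2, against 3.06, 3.17 and 3.49 RPKM with shGFP. It was higher in every knockdown library, at 0.24 and 0.18 log2 (limma adjusted p = 0.000988 and 0.00657), but neither call held after quantile normalisation. TBC1D7, another subunit of the complex, fell by 0.22 and 0.16 log2, and by 0.43 and 0.27 log2 with edgeR.

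TSC2, the GTPase-activating subunit that switches RHEB off, went opposite ways. It stood at 7.88, 8.07 and 7.93 RPKM with shDHX15-1 and at 5.75, 6.22 and 6.08 RPKM with shDHX15-2, against 7, 7.04 and 6.99 RPKM with shGFP. The shDHX15-1 libraries lay above shGFP and the shDHX15-2 libraries below it, at 0.16 and -0.19 log2 (SE 0.030 each; limma adjusted p = 0.000908 and 0.000444). The difference between the hairpins was -0.35 log2 (limma adjusted p = 1.33e-05). After median-centring or quantile normalisation the shDHX15-1 value was 0.05 log2 and not called (limma adjusted p = 0.142 and 0.141). TSC2 overlaps PKD1, and no source used here gives the strand setting of the counting.

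In the kinase complex, the catalytic subunit MTOR fell slightly. It stood at 9.02, 8.82 and 8.88 RPKM with shDHX15-1 and at 9.38, 9.40 and 9.43 RPKM with shDHX15-2, against 9.99, 10.1 and 10.3 RPKM with shGFP. The groups did not overlap, at -0.17 and -0.10 log2 (SE 0.023 each; limma adjusted p = 0.000117 and 0.00392), and the shDHX15-1 value was -0.28 log2 after median-centring. RPTOR, which presents substrates to the kinase, stood at 31.3, 30.3 and 31.1 RPKM with shDHX15-1 and at 27.3, 27.4 and 27.4 RPKM with shDHX15-2, against 27.7, 27.3 and 28.1 RPKM with shGFP. Only the shDHX15-1 value was called (0.15 log2, limma adjusted p = 9.32e-05), the shDHX15-2 value being -0.02 log2 (adjusted p = 0.422), and the hairpins differed by -0.17 log2 (adjusted p = 8.28e-05). After median-centring RPTOR was at 0.04 log2 with shDHX15-1, not called, and at -0.06 log2 with shDHX15-2, called; with DESeq2 it was called both ways, at 0.06 log2 with shDHX15-1 and -0.05 log2 with shDHX15-2. MLST8, a stabilising subunit, was called lower with shDHX15-1 alone, at -0.15 log2, and stood at 0.01 log2 with shDHX15-2; the call was lost without shDHX15-1 replicate 2 or shGFP replicate 3.

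AKT1S1 (PRAS40), an inhibitory subunit and substrate, fell with both hairpins. It stood at 1.75, 1.82 and 1.83 RPKM with shDHX15-1 and at 1.51, 1.58 and 1.54 RPKM with shDHX15-2, against 2.74, 2.73 and 3.03 RPKM with shGFP. The knockdown libraries all lay below shGFP, at -0.45 and -0.59 log2 (SE 0.043 each; limma adjusted p = 1.15e-05 and 3.63e-06). The ratios of means were 0.635 and 0.545, and edgeR gave -0.75 and -0.90 log2. The AKT1S1 span overlaps TBC1D17.

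Of the Rag GTPases, 3 of 4 rose with both hairpins, against 28.8% of all genes, or 2 of 4 after quantile normalisation. RRAGD, which pairs with RRAGA or RRAGB, stood at 9.67, 10.4 and 9.89 RPKM with shDHX15-1 and at 6.48, 6.16 and 6.72 RPKM with shDHX15-2, against 5.47, 5.32 and 5.59 RPKM with shGFP. The rise was larger with shDHX15-1 (0.77 log2) than with shDHX15-2 (0.21 log2), and the hairpins differed by -0.56 log2 (SE 0.038, limma adjusted p = 3.65e-06). RRAGB rose by 0.49 and 0.22 log2 (0.14 log2 and not called with shDHX15-2 after quantile normalisation) and RRAGA by 0.22 and 0.16 log2. RRAGC stood at -0.06 and 0.06 log2 and passed the test with neither hairpin in this scaling, but with shDHX15-1 it was called lower after median-centring (-0.17 log2), after quantile normalisation (-0.20 log2) and with edgeR (-0.16 log2) and DESeq2 (-0.17 log2).

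Ragulator, the scaffold that anchors the Rag GTPases on the lysosome, had 0 of 5 members called the same way with both hairpins, against 49.2% of all genes, or 1 of 5 after median-centring and with edgeR or DESeq2. LAMTOR1, its lipid-anchored subunit, was called with shDHX15-2, at -0.50 log2 against -0.07 log2 with shDHX15-1, a difference of -0.43 log2 (SE 0.035, limma adjusted p = 1.06e-05). Its shDHX15-1 value was also called lower after median-centring (-0.18 log2) and with edgeR (-0.17 log2) and DESeq2 (-0.18 log2). LAMTOR2 and LAMTOR5 were called lower with shDHX15-1 alone (-0.17 and -0.24 log2), and LAMTOR3 and LAMTOR4 higher with shDHX15-2 alone (0.17 and 0.23 log2), the LAMTOR3 call being held in 13 of 17 alternatives. LAMTOR3 was called lower with shDHX15-1 after median-centring (-0.17 log2), after quantile normalisation (-0.18 log2) and with edgeR (-0.16 log2) and DESeq2 (-0.17 log2), so the count tests called it in opposite directions. These 4 subunits were higher with shDHX15-2 than with shDHX15-1: LAMTOR2 by 0.20, LAMTOR3 by 0.23, LAMTOR4 by 0.17 and LAMTOR5 by 0.25 log2, each called. LAMTOR1 overlaps LRTOMT.

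The folliculin complex, which acts on RRAGC and RRAGD, was led by FNIP1. FNIP1, a partner of folliculin, stood at 5.78, 5.72 and 5.67 RPKM with shDHX15-1 and at 5.92, 5.94 and 6.02 RPKM with shDHX15-2, against 3.28, 3.30 and 3.43 RPKM with shGFP. The knockdown libraries lay above shGFP without overlap, at 0.63 and 0.68 log2 (SE 0.027 each; limma adjusted p = 8.36e-08 and 1.06e-07). FLCN itself and FNIP2 rose with shDHX15-1 (0.32 and 0.30 log2) and stood at 0.09 and 0.05 log2, not called, with shDHX15-2. After quantile normalisation the shDHX15-1 values were 0.15 log2 for FLCN and 0.13 log2 for FNIP2, both still called. Both were lower with shDHX15-2 than with shDHX15-1, by called differences of -0.24 and -0.25 log2.

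In GATOR1, which switches the Rag GTPases off, the structural subunit DEPDC5 rose. It stood at 3.94, 4.19 and 3.80 RPKM with shDHX15-1 and at 3.89, 3.99 and 3.89 RPKM with shDHX15-2, against 2.92, 2.92 and 2.79 RPKM with shGFP. The groups did not overlap, at 0.36 and 0.34 log2 (SE 0.038 each; limma adjusted p = 2.29e-05 and 4.50e-05), and at 0.18 log2 with shDHX15-1 after quantile normalisation. NPRL2, the catalytic subunit, stood at 8.01, 7.23 and 7.25 RPKM with shDHX15-1 and at 8.37, 7.69 and 8.15 RPKM with shDHX15-2, against 7.29, 7.18 and 7.14 RPKM with shGFP. It was called with shDHX15-2 alone (0.14 log2, limma adjusted p = 0.0145), whose libraries did not overlap shGFP, and that call was lost after median-centring, after quantile normalisation and without shDHX15-2 replicate 1. NPRL3 was called with shDHX15-1, at -0.12 log2 (-0.23 log2 after median-centring), and stood at -0.05 log2 with shDHX15-2, where it was called after median-centring (-0.09 log2) and with edgeR (-0.08 log2) and DESeq2 (-0.09 log2). KPTN, of the KICSTOR complex that anchors GATOR1, was called with shDHX15-2 alone, at 0.21 log2, and stood at 0.05 log2 with shDHX15-1.

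GATOR2, which opposes GATOR1, had 3 of 5 members lower and 1 higher with both hairpins, against 20.4% and 28.8% of all genes. The count lower was 4 after median-centring, and the count higher 0 after quantile normalisation. SEC13, a subunit it shares with the COPII coat and the nuclear pore, stood at 13.2, 12.8 and 13 RPKM with shDHX15-1 and at 13.3, 13.4 and 13.5 RPKM with shDHX15-2, against 19.9, 20.1 and 20.0 RPKM with shGFP. SEH1L, which it also shares with the nuclear pore, stood at 6.89, 7.30 and 7.14 RPKM with shDHX15-1 and at 5.10, 5.28 and 5.27 RPKM with shDHX15-2, against 9.79, 10.4 and 9.97 RPKM with shGFP. All knockdown libraries of both genes lay below shGFP. SEC13 fell by 0.58 and 0.54 log2 (SE 0.020 each; limma adjusted p = 2.38e-08 and 6.91e-08), and SEH1L by 0.45 and 0.83 log2 (SE 0.032 each; limma adjusted p = 1.74e-06 and 8.52e-08). WDR59 fell by 0.22 and 0.40 log2. MIOS, a core subunit, went the other way. It stood at 3.80, 3.90 and 3.71 RPKM with shDHX15-1 and at 3.34, 3.36 and 3.53 RPKM with shDHX15-2, against 2.87, 2.67 and 3.21 RPKM with shGFP. The groups did not overlap, at 0.30 and 0.17 log2 (limma adjusted p = 0.00059 and 0.0147), and the shDHX15-2 call was lost after quantile normalisation and without shDHX15-2 replicate 3. The shDHX15-1 value was 0.12 log2 after quantile normalisation. WDR24 was called with shDHX15-2, at -0.09 log2, and stood at 0.03 log2 with shDHX15-1, where it was called lower after median-centring (-0.07 log2).

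Among the substrates, EIF4EBP1 (4E-BP1), which blocks cap-dependent translation until mTORC1 phosphorylates it, fell most. It had the highest level of the members in shGFP cells and stood at 53.1, 50.0 and 54.8 RPKM with shDHX15-1 and at 29.7, 29.2 and 29.6 RPKM with shDHX15-2, against 67.5, 68.4 and 65.0 RPKM with shGFP. The groups did not overlap, at -0.34 and -1.16 log2 (SE 0.033 each; limma adjusted p = 1.32e-05 and 1.70e-08). The hairpins differed by -0.81 log2 (SE 0.033, limma adjusted p = 2.20e-07), the largest difference between them of any member. RPS6KB2, an S6 kinase, fell by 0.25 and 0.20 log2. ULK1 rose by 0.16 and 0.18 log2 and EIF4EBP2 by 0.16 and 0.07 log2, with the shDHX15-1 calls of both lost after median-centring. The shDHX15-2 call for EIF4EBP2 held in 10 of 17 alternatives.

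RPS6KB1, the main S6 kinase, had opposite small changes. It stood at 15.3, 15.5 and 14.9 RPKM with shDHX15-1 and at 13.9, 13.5 and 14.2 RPKM with shDHX15-2, against 14.5, 14.5 and 14.7 RPKM with shGFP. The values were 0.06 and -0.06 log2 (SE 0.025 each; limma adjusted p = 0.0479 and 0.0435). The shDHX15-1 call held in 5 of 17 alternatives, and in 3 others the value was negative and not called. The shDHX15-2 call held in 7 of 17.

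**Figure D2:**
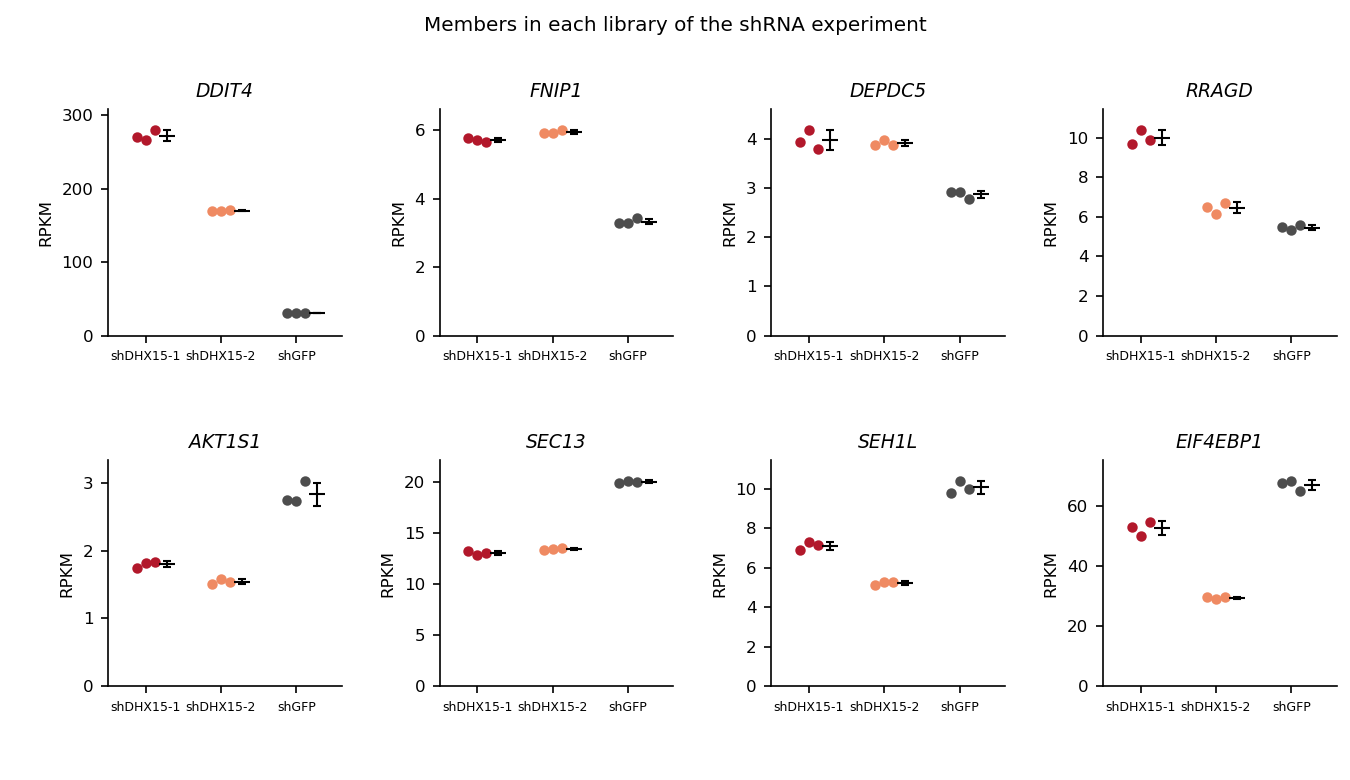
RPKM of 8 members in each library (points) with mean and standard deviation (black), for shDHX15-1, shDHX15-2 and shGFP. DDIT4, FNIP1, DEPDC5 and RRAGD lie above shGFP and AKT1S1, SEC13, SEH1L and EIF4EBP1 below it in all 6 knockdown libraries.

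Between the hairpins, 25 members were called in shDHX15-2 against shDHX15-1, 10 higher and 15 lower, against 61.1% of all genes (23.2% higher, 37.9% lower). Libraries of 29 members did not overlap, against 67.9% of all genes. The split turned to 16 higher and 11 lower after median-centring, 15 and 14 after quantile normalisation, and 16 and 12 with edgeR or DESeq2.

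With ciclopirox, 14 of 31 members tested were called (limma on log2(normalised count + 1)), 5 higher and 9 lower, against 48.5% of all 16825 genes (23.5% higher, 25% lower). The median member change was -0.03 log2, against -0.02 log2 for all genes. Libraries of 17 members did not overlap, against 56% of all genes. The split was 3 higher and 11 lower after median-centring, 8 and 6 after quantile normalisation and 6 and 7 with edgeR. Without DMSO replicate 1, 16 members were called, 8 each way, and without ciclopirox replicate 1, 7 were called. Leaving out ciclopirox replicate 2, DMSO replicate 2 or DMSO replicate 3 gave 9 each. DEPTOR and DEPDC5 were below the filter on low values, at up to 4.78 and 9.58 normalised counts. DEPDC5 had 2 to 10 reads in the drug libraries, against 1431 to 2061 in the hairpin libraries of the same cell line. The cause of this gap was not tested, so the low drug values need not mean low expression. DHX15 stood at 9220, 8970 and 10200 normalised counts with ciclopirox, against 14500, 16700 and 16300 with DMSO, a fall of 0.74 log2 (SE 0.092, limma adjusted p = 8.70e-05).

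DDIT4 rose most again. It stood at 17800, 19900 and 16600 normalised counts with ciclopirox, against 1270, 914 and 987 with DMSO. The ciclopirox mean was 17.2-fold the DMSO mean, at 4.11 log2 (SE 0.13, limma adjusted p = 1.10e-08), and at 4.25 log2 without DMSO replicate 1. RRAGD stood at 1380, 1260 and 1400 normalised counts with ciclopirox, against 755, 789 and 837 with DMSO, a rise of 0.76 log2 (SE 0.11, limma adjusted p = 0.000183). In both genes the groups did not overlap.

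EIF4EBP1, lower with each hairpin, was higher with ciclopirox. It stood at 6120, 6330 and 5180 normalised counts with ciclopirox, against 3000, 2040 and 2020 with DMSO, and rose by 1.34 log2 (SE 0.15, limma adjusted p = 4.41e-05). Without DMSO replicate 1, the highest DMSO library, the value was 1.53 log2. The drug and hairpin experiments were normalised separately, so no test was made between them.

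TSC1 stood at 1260, 1390 and 1530 normalised counts with ciclopirox, against 970, 1120 and 1170 with DMSO (0.36 log2, limma adjusted p = 0.0279). TSC2 stood at 3800, 4290 and 3560 with ciclopirox, against 3560, 3050 and 2890 with DMSO (0.29 log2, limma adjusted p = 0.0446). The groups of neither gene overlapped (for TSC2 the nearest libraries are equal only as rounded), but both calls were near the threshold and held in 8 and 7 of 13 alternatives. RHEB stood at 2710, 2520 and 2740 normalised counts with ciclopirox, against 3180, 3130 and 3230 with DMSO (-0.26 log2, limma adjusted p = 0.0297), a call held in 6 of 13 alternatives. RPTOR stood at 12500, 13900 and 12200 with ciclopirox, against 13500, 11400 and 11100 with DMSO, and the groups overlapped (0.10 log2, limma adjusted p = 0.444).

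SEH1L had the largest fall. It stood at 2590, 2530 and 2750 normalised counts with ciclopirox, against 5560, 5910 and 6050 with DMSO (-1.15 log2, SE 0.087, limma adjusted p = 3.19e-06). RPS6KB1 stood at 1010, 1270 and 1210 with ciclopirox, against 1690, 2060 and 2170 with DMSO (-0.76 log2, SE 0.13, limma adjusted p = 0.000631). MTOR stood at 3340, 3940 and 3700 with ciclopirox, against 5510, 5190 and 5450 with DMSO (-0.56 log2, SE 0.092, limma adjusted p = 0.000559). The groups of all 3 genes were apart, and their calls held in every alternative run.

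MIOS stood at 873, 873 and 990 normalised counts with ciclopirox, against 1080, 1260 and 1270 with DMSO (-0.40 log2, limma adjusted p = 0.014). NPRL2 stood at 855, 918 and 831 with ciclopirox, against 1410, 1040 and 996 with DMSO (-0.38 log2, limma adjusted p = 0.0407), and without DMSO replicate 1 it was at -0.23 log2 and not called (limma adjusted p = 0.0937). SEC13 stood at 3140, 3610 and 3280 with ciclopirox, against 4870, 4050 and 4130 with DMSO, without overlap (-0.38 log2, limma adjusted p = 0.0112). TBC1D7 at -0.37 and LAMTOR3 at -0.29 log2 were also called lower. The calls for TBC1D7 and SEC13 held in 11 of 13 alternatives each, for MIOS in 10, for NPRL2 in 8 and for LAMTOR3 in 5; each was lost without ciclopirox replicate 1. Without DMSO replicate 1, ULK1 (0.37 log2), WDR24 (0.29 log2) and NPRL3 (0.28 log2) were called higher. The members not called were MLST8, LAMTOR1, LAMTOR2, LAMTOR4, LAMTOR5, RRAGA, RRAGB, RRAGC, FNIP2, NPRL3, KPTN, WDR24, WDR59, RPS6KB2, EIF4EBP2, ULK1 and RPTOR, with values between -0.31 log2 in LAMTOR5 and 0.24 log2 in ULK1.

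**Figure D3:**
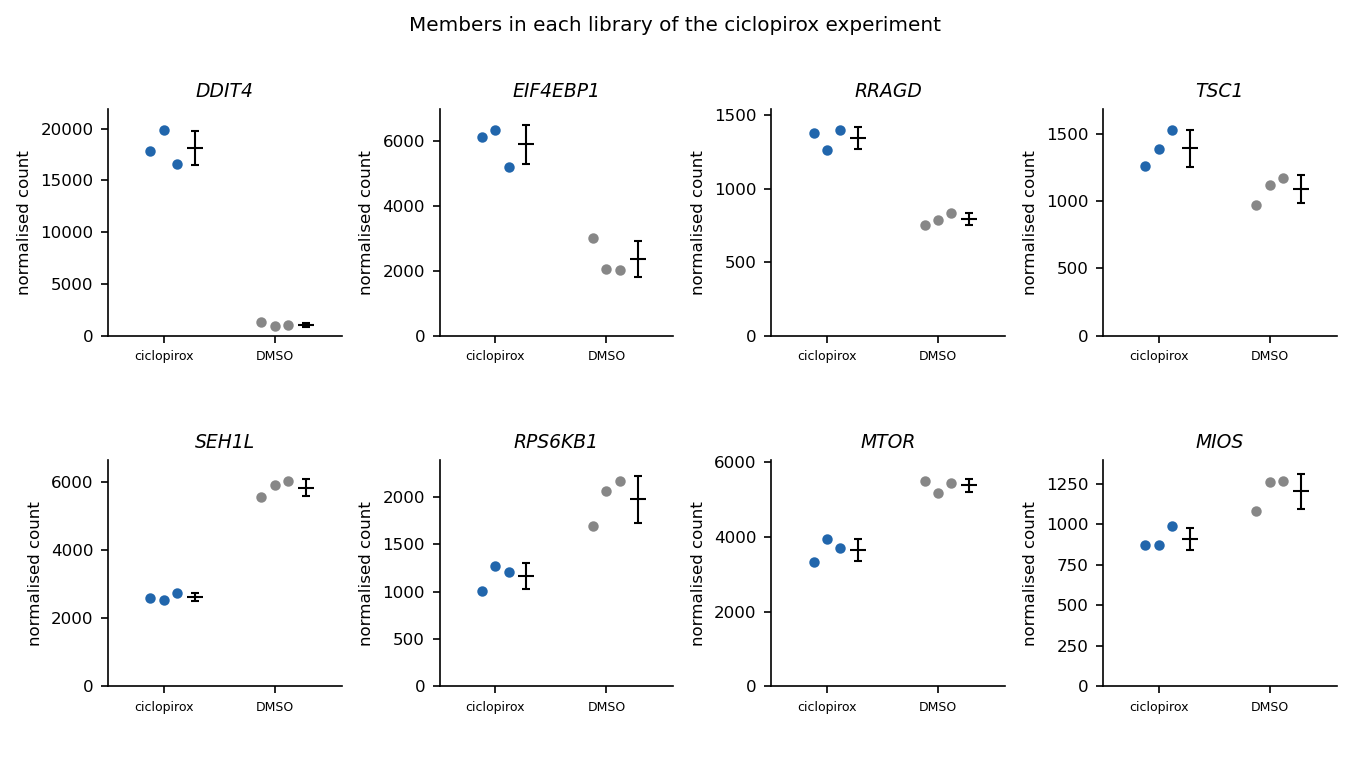
Normalised counts of 8 members in each library (points) with mean and standard deviation (black), for ciclopirox and DMSO. DDIT4, EIF4EBP1, RRAGD and TSC1 lie above DMSO and SEH1L, RPS6KB1, MTOR and MIOS below it in all 3 ciclopirox libraries.

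Genes around the complex were taken from 8 lists of 78 genes, of which 67 were tested in each experiment. With both hairpins, 19 were called higher, 17 lower and 7 in opposite directions, against 28.8%, 20.4% and 5.47% of all genes. With ciclopirox 15 were called higher and 22 lower, against 23.5% and 25% of all genes. Of the amino acid sensors and KICSTOR, 3 of 8 rose and 1 fell with both hairpins, or 2 and 2 after median-centring or quantile normalisation. Those that rose included BMT2 (SAMTOR, a methionine-responsive sensor; 0.40 and 0.59 log2) and SESN1 (a leucine-responsive sestrin; 0.21 and 0.19 log2, lost after median-centring or quantile normalisation), while SAR1B, also a leucine sensor, fell (-0.35 and -0.26 log2). With ciclopirox SESN2, another sestrin, rose by 2.69, SESN1 by 2.08 and BMT2 by 0.97 log2.

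The V-ATPase, the lysosomal proton pump through which amino acids are sensed, had 0 of 15 members higher and 5 lower with both hairpins, against 28.8% and 20.4% of all genes; the count lower was 8 or 9 after other scalings and with edgeR or DESeq2. The median member stood at -0.10 and -0.16 log2, against 0.09 and 0.03 log2 for all genes. ATP6V0B fell by 0.54 and 0.36 log2, ATP6AP1 by 0.52 and 0.35 log2 and ATP6V1E1 by 0.36 and 0.30 log2. With ciclopirox 8 were lower (25% of all genes), or 9 after median-centring and 6 after quantile normalisation. The largest falls were in ATP6V0A1 (-0.95 log2, limma adjusted p = 0.0279), ATP6V1G1 (-0.61 log2) and ATP6V0A2 (-0.59 log2). ATP6V0A1 was not tested with the hairpins. ATP6V0D1 was higher with ciclopirox (0.35 log2, lost after median-centring).

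In cap-dependent translation, 3 of 12 genes were higher and 5 lower with both hairpins, against 28.8% and 20.4% of all genes. After quantile normalisation the counts were 3 and 2. PDCD4, an inhibitor of the eIF4A helicase that S6 kinase marks for destruction, rose by 0.86 and 0.79 log2 and by 0.87 log2 with ciclopirox. EIF4EBP3 (0.48 and 0.28 log2) and EIF4B (0.14 and 0.26 log2, the shDHX15-1 call lost after median-centring) also rose with the hairpins. EIF4G1, the scaffold of the cap-binding complex, fell by 0.64 and 0.35 log2 with the hairpins and by 1.24 log2 with ciclopirox. EEF2K fell by 0.19 and 0.21 log2 and LARP1 by 0.52 and 0.12 log2, the shDHX15-2 call for LARP1 being lost after quantile normalisation. With ciclopirox EIF4E fell by 1.15 and LARP1 by 1.14 log2, and EEF2 rose by 0.37 log2, a call lost after median-centring.

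Upstream of TSC, 6 of 17 kinase and phosphatase genes were higher and 4 lower with both hairpins, against 28.8% and 20.4% of all genes. After median-centring the counts were 2 and 5. The rises included PIK3CD (0.33 and 0.53 log2) and PIK3R1 (0.14 and 0.30 log2, the shDHX15-1 call lost after median-centring and with DESeq2), and the falls GSK3A (-0.56 and -0.21 log2), PDPK1 (-0.22 and -0.18 log2) and PRKAB1 (-0.32 and -0.18 log2). With ciclopirox IRS2 (0.95 log2), PRKAB1 (0.83 log2) and PRKAG2 (0.77 log2) rose, and PIK3R1 (-0.81 log2) and PRKAA1 (-0.45 log2) fell, with the calls for PRKAG2 and PRKAA1 lost after quantile normalisation.

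Of 7 autophagy initiation genes, 3 rose and 1 fell with both hairpins, against 28.8% and 20.4% of all genes: ATG14 (0.57 and 0.35 log2), AMBRA1 (0.26 and 0.25 log2) and PIK3C3 (0.20 and 0.08 log2) rose, and ATG101 (-0.44 and -0.25 log2) fell. The shDHX15-2 call for PIK3C3 was lost after median-centring and with DESeq2, and after quantile normalisation PIK3C3 was at 0.01 log2 with both hairpins and not called. With ciclopirox ATG13 (0.45 log2) and PIK3C3 (0.43 log2) rose and RB1CC1 (-0.53 log2, lost after quantile normalisation) fell. Of the mTORC2 genes PRR5 rose by 0.38 and 0.59 log2 and RICTOR by 0.32 and 0.11 log2, the shDHX15-2 call for RICTOR being lost after median-centring or quantile normalisation, and MAPKAP1 fell by 0.42 and 0.10 log2. With ciclopirox PRR5 rose by 2.94 log2 (limma adjusted p = 0.00967) and MAPKAP1 fell by 0.46 log2. The level of PRR5 was low, at 1.21 RPKM in shGFP cells. TELO2, of the TTT complex that helps mTOR fold, rose by 0.26 and 0.23 log2, and TTI2 of the same complex fell by 0.79 log2 with ciclopirox. TFE3, a lysosomal transcription factor held in the cytoplasm by mTORC1, rose by 0.10 and 0.30 log2 and by 1.01 log2 with ciclopirox, but its shDHX15-1 call was lost under every other scaling and count test. TFEB, a related factor, was called at 0.14 log2 with shDHX15-1, a call also lost under every other scaling and count test, and at -0.21 log2 with shDHX15-2.

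In the authors' deposited RIP peak list, 14 of 36 members had at least 1 of its 4499 peaks within the gene span, with 24 peaks in all. A peak lay in 40% of the 35 members tested with the hairpins, against 24.2% of the 11362 tested genes that have a span. Members with a peak had a median level of 11.2 RPKM in shGFP cells and a median span of 14753 bases, and members without a peak 6.80 RPKM and 40276 bases. The part of level and length in this share was not tested. No source used here says which libraries lie behind a peak, so the peaks carry no replicate error.

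The members with peaks were RPTOR, AKT1S1, TSC2, LAMTOR2, LAMTOR4, LAMTOR5, FLCN, NPRL2, NPRL3, SEC13, WDR24, WDR59, RPS6KB2 and ULK1. The authors' fold enrichment of these peaks was 1.51 to 2.21, with a median of 1.62, against 1.65 for all peaks. The highest was in LAMTOR2 (GRCh38, chr1:156058293-156058368, plus strand, 2.21-fold), and 18 of 24 peaks lay on the gene's strand, 2 on the other and 4 on genes whose strand was not in the table. ULK1 had 3 peaks, one of which (chr12:131920024-131920074) had an FDR of 1.85e-12. Among members called the same way with both hairpins by at least 0.3 log2, AKT1S1 and SEC13 had peaks. DDIT4, FNIP1, DEPDC5, SEH1L and EIF4EBP1, of the same set, had none. With shDHX15-1, 4 of 14 members with a peak were higher and 7 lower, and 12 of 21 members without a peak were higher and 5 lower. With shDHX15-2 these were 3 and 6 of 14, and 12 and 6 of 21. Of all genes, 45.4% were higher and 28.9% lower with shDHX15-1, and 35.6% and 30.1% with shDHX15-2. All genes were not split by peak, so the counts have no matching background. No test was made of the difference between members with and without a peak.

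In the thymus, 7211 of 8484 KO barcodes and 8754 of 9434 Dhx15fl/fl barcodes were kept. With 1 library per genotype there was no test, and intervals cover counting error only. The kept KO barcodes had a median of 7255 UMIs, against 3723.5 in Dhx15fl/fl, and 17 barcodes occurred in both libraries. Dhx15 stood at 100.1 CPM (UMIs per 1000000 UMIs) in KO, against 181.2 CPM in Dhx15fl/fl; as these are 3′ tags, they may lie outside the deleted part.

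Over all kept barcodes the members summed to 1474 CPM (exact Poisson 95% interval 1466 to 1483) in KO, against 1589 CPM (1578 to 1600) in Dhx15fl/fl, a ratio of 0.928. The make-up of the libraries differed. Double positive-like cells were 25.0% of KO and 54.8% of Dhx15fl/fl barcodes, cycling-like cells 17% and 6.91%, double negative-like cells 15.0% and 1.13%, and unnamed clusters 30.1% and 27.4%. These classes were rebuilt from markers. The summed CPM of 8 double positive markers was 3096 in KO and 6804 in Dhx15fl/fl, and that of 3 erythroid markers 61.2 and 21.0. The part of these differences in the values over all barcodes was not tested.

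Past a 1.5-fold ratio over all kept barcodes were 5 of 36 members, against 30.7% of 12740 genes; 2 were higher (14.5% of genes) and 3 lower (16.2%). Deptor, an inhibitory subunit, was at 6.06 CPM in KO and 3.40 CPM in Dhx15fl/fl (ratio 1.78, 95% interval 1.49 to 2.13), and Tbc1d7 at 14.5 and 8.75 CPM (ratio 1.65, 1.48 to 1.85). Rragd was at 7.53 CPM in KO and 16.9 CPM in Dhx15fl/fl (ratio 0.446, 0.4 to 0.497). Ulk1 was at 17.7 and 28.3 CPM (ratio 0.623, 0.578 to 0.672) and Tsc1 at 16.5 and 24.9 CPM (ratio 0.665, 0.614 to 0.720). The other 31 lay between 0.680 (Rps6kb2) and 1.20 (Eif4ebp1), and the median over the members was 0.921, against 0.935 over all genes.

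Within double positive-like cells (1802 KO and 4799 Dhx15fl/fl barcodes), the sum was 1988 CPM in KO, against 1772 CPM in Dhx15fl/fl, a ratio of 1.12 (1.1 to 1.14). KO cells of this class lay mostly in cluster 7 and Dhx15fl/fl cells in clusters 0 and 1. Most of the excess in this sum lay in 1 member, Ddit4, at 384 CPM in KO and 186 CPM in Dhx15fl/fl (ratio 2.07, 1.97 to 2.18). Tbc1d7 had a ratio of 2.09 (1.58 to 2.75) and Kptn of 1.71 (1.30 to 2.24). Rps6kb2 had a ratio of 0.658 (0.552 to 0.780) and Deptor of 0.625, with an interval that includes 1 (0.362 to 1.03). These were 5 of 35 members, 3 higher and 2 lower, against 18.8% of 10124 genes (12.1% higher, 6.77% lower). The median ratio was 1.05 for the members and 1.04 for all genes. Rragd was at 34.1 CPM in KO and 34.4 CPM in Dhx15fl/fl in this class, a ratio of 0.99.

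**Figure D4:**
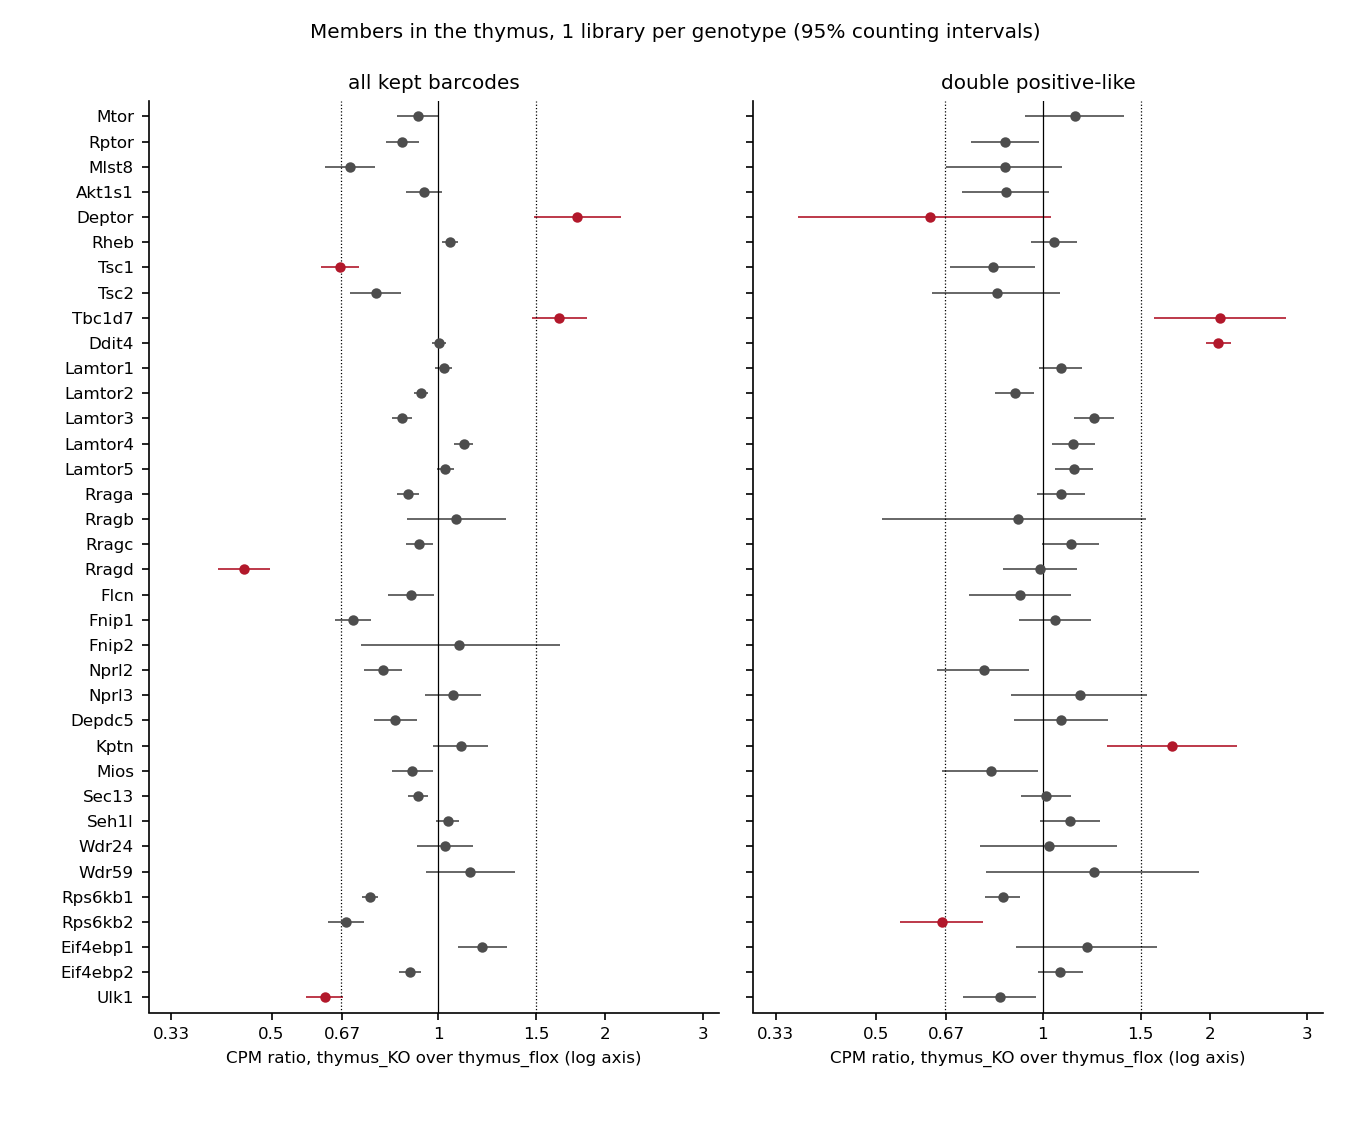
CPM ratio of KO over Dhx15fl/fl (thymus_flox) for each member, over all kept barcodes (left) and within double positive-like cells (right), on a log axis with 95% counting intervals. Dotted lines mark 1.5-fold and red points lie beyond it; Ddit4 is at 1.00 on the left and 2.07 on the right.

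Ddit4 differed by class. In double negative-like cells it was at 136 CPM in KO, against 60.8 CPM in Dhx15fl/fl (ratio 2.23, 1.75 to 2.89). In TCR-signalled-like cells it was at 281 CPM in KO and 172 CPM in Dhx15fl/fl (ratio 1.63, 1.37 to 1.93), and in mature single positive-like cells at 292 CPM in KO and 180 CPM in Dhx15fl/fl (ratio 1.62, 1.45 to 1.82). Cycling-like cells had 60.2 CPM in KO and 58.4 CPM in Dhx15fl/fl (ratio 1.03, 0.941 to 1.13). Over all kept barcodes Ddit4 stood at 153.2 CPM in KO and 152.9 CPM in Dhx15fl/fl. Whether these ratios would recur in other mice was not tested.

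**Figure D5:**
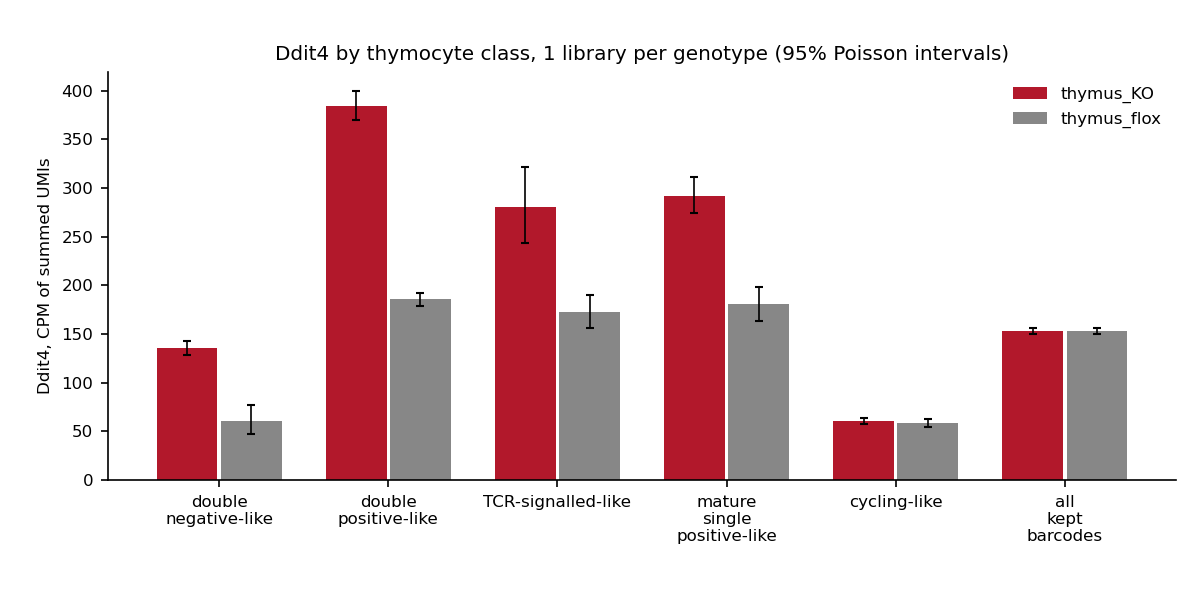
Ddit4 in CPM of summed UMIs by thymocyte class for KO (red) and Dhx15fl/fl (thymus_flox, grey), with exact Poisson 95% intervals. KO is above Dhx15fl/fl in 4 classes and level with it in cycling-like cells and over all kept barcodes.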

How the data were processed

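Gene expression in CUTLL1 came as the authors' deposited RPKM values (9 hairpin libraries) and the authors' deposited normalised count signal (6 drug libraries, counts over a size factor). Hairpin reads were recovered for 19748 of 19848 genes, keeping only genes whole within 0.001 reads in every library. In the drug libraries, where no gene was dropped, all values were whole within 0.01 reads once scaled back (100%). The ciclopirox dose comes from the deposited table's name. Tools named in the submitters' processing notes, without roles, include STAR 2.4.1.7 and STAR 2.7.5c, DESeq2 1.32.0, and the builds hg19, hg38 and mm10. UMI counts in the thymus matrices carry the version Cell Ranger 6.0.1 in the file headers. The deposited peak list gives the authors' fold enrichment ratio, p-value, FDR and score; the caller was not found in any source used here. The authors' deposited log2 fold changes and p-values for ciclopirox, with their test score, were not used.

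Values were log2-transformed after adding 1. limma 3.58.1 (trended empirical Bayes, R 4.3.3; two-sided, Benjamini-Hochberg over all genes) was fitted to genes reaching 1 RPKM, or 10 normalised counts, in at least 3 libraries. On recovered reads edgeR 4.0.16 called 11313, 10130 and 9391 of 15022 genes in the hairpin comparisons (shDHX15-1 and shDHX15-2 against shGFP, then shDHX15-2 against shDHX15-1) and 8167 of 16825 with ciclopirox; DESeq2 1.42.0, other pseudocounts, filters and scalings, a replicate block and leaving out each library were further alternatives. The limma fits were also run on simulated reads in which few genes changed and all genes shared the same spread. These data differ in both, so no conclusion is drawn from that run. Peaks were matched to RefSeq GRCh38 gene spans on either strand; 4150 of 4499 lay in a span, against 2801 after a shift by 1000000 bases. Thymus barcodes with at least 1000 UMIs and under 10% mitochondrial UMIs were clustered without the members (Scanpy 1.11.5, Leiden, 19 clusters) and named from markers. Scrublet called 0 doublets, so none were removed. Thymus ratios were read for genes with at least 50 UMIs, with exact binomial 95% intervals.

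Members, lists and alternatives were chosen with earlier results of these data known. Values in every library are given for DHX15, for members called the same way with both hairpins by at least 0.3 log2, for members called in opposite directions, for the 5 largest called rises and falls with ciclopirox, and for DDIT4, MTOR, RPTOR, RHEB and TSC2. Of each list, up to 3 called rises and 3 called falls are named. Some genes that this rule names are not reported here.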

Additional observations from a re-analysis of the deposited data

Results flagged for a closer look

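TSC2 and RPS6KB1 were called in opposite directions by the 2 hairpins, and the difference between the hairpins was itself called. For TSC2 the shDHX15-2 minus shDHX15-1 difference was -0.353 log2 (limma adjusted p = 1.33e-05), with all shDHX15-2 libraries below and all shDHX15-1 libraries above shGFP. For RPS6KB1 it was -0.126 log2 (limma adjusted p = 0.00195), and after median-centring it was not called (adjusted p = 0.0609).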

How the results depend on the processing

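Members called the same way with both hairpins numbered 16 to 20 under every alternative, against 19. Of 2153 recomputed values of single members, 1969 kept their side of the threshold, 123 lost and 57 gained a call, and 58 uncalled ones changed sign. RPS6KB1 with shDHX15-1 changed sign, to -0.047 log2 after median-centring, -0.027 with edgeR and -0.035 with DESeq2, and WDR24 with shDHX15-1 to -0.075 log2 after median-centring, where it was called. Leaving out each library gave 26 to 29 members called with shDHX15-1, 23 to 27 with shDHX15-2, 20 to 25 between the hairpins, 18 to 19 with both, and 7 to 16 with ciclopirox (7 without ciclopirox replicate 1 and 9 without ciclopirox replicate 2, DMSO replicate 2 or DMSO replicate 3). The replicate block gave 27, 26 and 24 members for the hairpin comparisons, 19 with both and 14 with ciclopirox. Same-numbered libraries had deviations correlated at -0.00061 to 0.095 (hairpins) and -0.11 to 0.16 (ciclopirox). Differently numbered libraries had -0.12 to 0.047 (hairpins) and -0.29 to 0.18 (ciclopirox). Whether the numbers pair libraries was not tested. Members with a RIP peak fell to 3 at a fold of at least 2 and to 1 at an FDR under 1e-10. The summed thymus ratio of 0.928 became 1.12 within double positive-like cells and 1.04 without mitochondrial and ribosomal protein genes. Within double positive-like cells most of the KO excess in the sum lay in Ddit4. The cause of these changes was not tested. The alternative without Scrublet doublets gave no value, as 0 were called; leaving out the 6% highest scores, chosen after seeing the data, gave 0.935. Low counts limit scarce thymus members, such as Fnip2 (3 and 4 UMIs in double positive-like cells), and DEPTOR and DEPDC5 in the drug experiment.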
